A study of Rattus norvegicus with 39 samples.

Results

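Gene expression in the CA1 region of the hippocampus was compared between 9 rats that had carried a 200 mg corticosterone pellet (titled IntermediateCort) and 10 rats that had carried a 25 mg pellet (titled LowCort), 19 of the 39 arrays in the series. The arrays were chosen by their titles alone, with no use of measured values. The remaining 20 arrays came from 10 Sham animals and 10 LowInj animals and enter only where named. All were male rats of the Fischer 344 strain (spelled Fisher 344 in the sample labels), one array per animal, killed at 18 months of age on the last days of the study in the morning.

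Both pellet groups had been adrenalectomized in late mid-age, so neither had adrenal corticosterone of its own, and the slow-release pellet was in place for 3 months. Sham animals were operated on without removal of the adrenals and carried an inert pellet. LowInj animals were adrenalectomized, carried the 25 mg pellet and received 4 daily intraperitoneal injections of 5 mg corticosterone in the final week. Animals with the 25 mg pellet stayed on saline and sucrose drinking fluid after pellet implantation. The design text does not say that the 200 mg animals did, so dose and drinking fluid cannot be told apart here. A constant-release pellet also gives no daily rhythm. One adrenalectomized animal was removed for poor health, and no batch, scan day or day of death is given for the arrays.

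Corticosterone is the main glucocorticoid of the rat. It binds the mineralocorticoid receptor (Nr3c2) with high affinity and the glucocorticoid receptor (Nr3c1) with lower affinity, and CA1 pyramidal neurons carry both, so that low levels occupy mainly the first and higher levels recruit the second. Once bound, the glucocorticoid receptor enters the nucleus, induces genes through response elements in DNA, and represses many inflammatory and interferon-driven genes.

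The 200 mg pellet went with more genes lowered than raised. Of 8740 probe sets (groups of short oligonucleotides read together as 1 value per array), 58 were higher and 117 lower with the 200 mg pellet at an adjusted p under 0.05 (limma on these 19 arrays, Benjamini-Hochberg over all probe sets). The background is thus 2% of probe sets called in either direction, 0.664% called higher and 1.34% called lower. At an unadjusted p under 0.05 the numbers were 501 higher and 556 lower. Differences were small: the median fold among the called probe sets was 1.27, the smallest 1.13 and the largest 2.59, and 1 probe set exceeded 2-fold. Values are log2 expression values throughout, so that a difference of 1 is a doubling, and the median difference over all probe sets was 0.01. With 1 array per animal, the p-values set the group difference against the spread between animals, which limma estimates in part from all probe sets. The tissue is a bulk dissection, in which fewer cells of a type and less RNA per cell cannot be told apart.

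The 157 called probe sets that the annotation ties to a single symbol stood for 135 genes, 47 higher and 88 lower, out of 4736 genes on the array (2.85%). By direction, 0.992% of all genes were called higher and 1.86% lower. With 1 probe set per gene, 52.2% of all genes differed in the positive direction. The counts of each gene list below are to be set beside these shares. For 74 of these genes the array holds several probe sets. All of a gene's probe sets differed in the same direction for 62 of the 74, at least 2 passed for 19, and every one passed for 12. In 21 probe sets, 2 higher and 19 lower, the ranges of the 2 groups did not overlap, and all 21 were among those called.

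**Figure D1:**
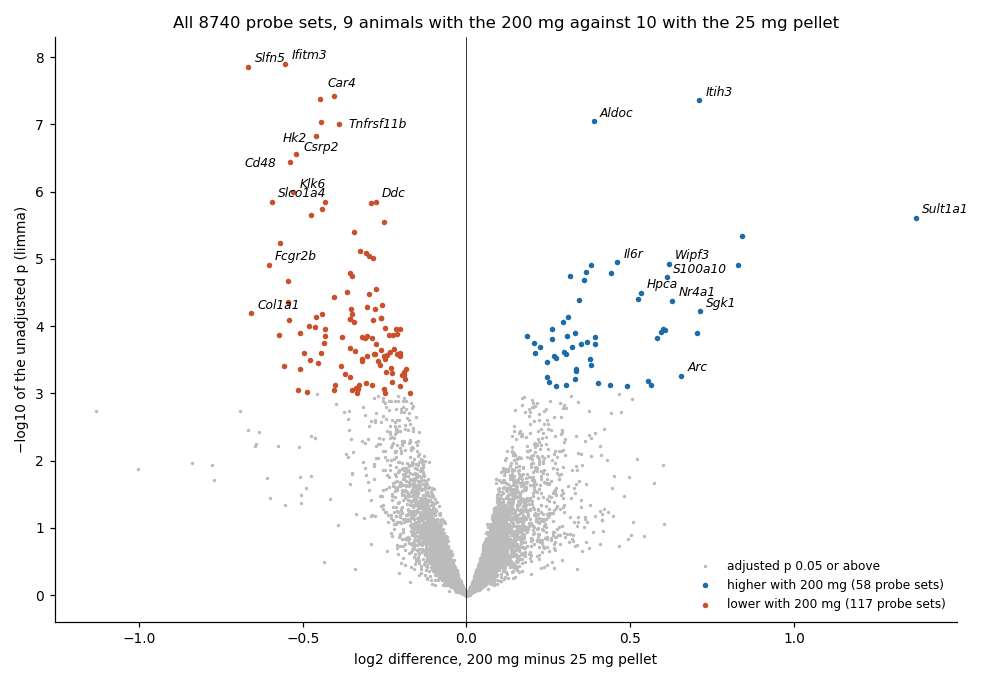
Each point is 1 of 8740 probe sets: the x axis gives the log2 difference (200 mg minus 25 mg pellet), the y axis −log10 of limma's unadjusted p. Blue points (58) were called higher, red points (117) lower, and gray points had an adjusted p of 0.05 or above. The smallest p-values lie on the left, among genes that were lower with the 200 mg pellet, with Slfn5 and Ifitm3 uppermost, while the widest difference is that of Sult1a1 on the right.

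Genes known to be induced by glucocorticoids were the group with most members higher. Of 18 such genes measured, 6 rose (Sult1a1, Sgk1, Il6r, Dusp1, Errfi1 and Cebpd), 1 fell (Tat) and 11 did not pass. The list's median difference was 0.11, against 0.01 over all genes, with 13 of 18 positive (72.2%, against 52.2% over all genes). Of the list 38.9% was called, against 2.85% over all genes. Both probe sets of Sult1a1, a cytosolic sulfotransferase that conjugates phenols and catechols, rose. On the one with the smaller p, the 25 mg animals lay between 4.62 and 5.33 (median 5.07) and the 200 mg animals between 5.16 and 7.81 (median 6.52). The difference was 1.37 (SE 0.22, limma adjusted p 0.00113), and 8 of 9 animals with the larger pellet lay above every animal with the smaller one. The other probe set differed by 0.84 (SE 0.14).

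Sgk1, a kinase that regulates ion channels and is a classic target of both corticosteroid receptors, ran from 7.73 to 8.27 (median 7.91) with 25 mg and from 8.11 to 9.70 (median 8.54) with 200 mg. Its difference was 0.71 (SE 0.14, limma adjusted p 0.00977), with overlap in 1 animal. The 200 mg mean of 8.64 differed from the Sham mean (9.43 ± 0.59, SD, n = 10) by −0.79, which did not pass (limma, adjusted p 0.67). Il6r, the ligand-binding chain of the interleukin-6 receptor, went from a median of 6.65 (6.34 to 6.76) to 7.13 (6.76 to 7.40). The rise of 0.46 (SE 0.08, limma adjusted p 0.00338) left 8 of 9 animals above all 25 mg animals.

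Dusp1, the phosphatase that switches off MAP kinases, rose by 0.55 (SE 0.14, limma adjusted p 0.0374) on 1 of its 3 probe sets, from a median of 6.91 to 7.57, and the groups overlapped. Its other probe sets differed by 0.50 and 0.24 and did not pass. Errfi1, a feedback inhibitor of the epidermal growth factor receptor, rose by 0.27 and Cebpd, a transcription factor of the acute-phase response, by 0.25, each on 1 of 3 probe sets. Tat, a liver enzyme of tyrosine breakdown that glucocorticoids induce there, fell by 0.27 on values between 5.37 and 6.00. Of the established target genes, Klf9 differed by 0.27 and 0.21 on its 2 probe sets and Pdk4 by 0.10, none passing. Fkbp5, Tsc22d3 and Per1 had no probe set with a single symbol. This list's count moved with single animals: without animal 11, of the 200 mg group, 9 members passed as higher, and over the 19 fits that each left out 1 animal between 3 and 9 did.

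Promoter sequence was available for 35 of the 47 genes that rose and 71 of the 88 that fell, as RefSeq windows on the GRCr8 build from 250 bases before to 50 after the start. The core of the full glucocorticoid response element, ACANNNTGT, occurred on either strand in 6.60% of all 27457 windows, in 4.68% of the 3871 windows of genes on the array and in no window of either set. The hexamer bound by one receptor of the pair, AGAACA, occurred in 20.1% of all windows and 13.5% of those of array genes, in 1 of 35 of the genes that rose and in 8 of 71 of those that fell. Many glucocorticoid response elements lie outside such short windows, so these counts describe only the window. Sult1a1 held the one hexamer among the genes that rose, and that stretch of its window is shown, with the hexamer in capitals, because it is the gene with the largest rise:
Sult1a1 (chr1:190706146-190706251, minus strand): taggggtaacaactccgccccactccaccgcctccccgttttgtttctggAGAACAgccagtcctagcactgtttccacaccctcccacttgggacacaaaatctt
The full cAMP response element, TGACGTCA, occurred in 1.91% of all windows and 2.43% of those of array genes. It occurred in 1 of 35 of the genes that rose, Dusp1, and in 2 of 71 of those that fell, Sstr2 and Cdc42. The Dusp1 stretch is shown, with the element in capitals, because Dusp1 belongs to both the glucocorticoid-induced and the immediate early genes:
Dusp1 (chr10:17184679-17184786, plus strand): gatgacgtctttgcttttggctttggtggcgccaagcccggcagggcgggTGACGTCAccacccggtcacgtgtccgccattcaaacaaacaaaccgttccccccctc

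The receptors themselves were lower with the larger pellet on some probe sets. Nr3c2 fell by 0.36 (SE 0.08, limma adjusted p 0.0178) on 1 probe set, from a median of 8.65 (8.34 to 8.99) to 8.42 (8.04 to 8.53), and differed by −0.18 on the other. For Nr3c1, 1 of 3 probe sets fell by 0.31 (SE 0.08, limma adjusted p 0.0389), and the others differed by −0.01 and −0.02. That Nr3c1 result passed in 7 of the 19 fits that left out 1 animal and did not pass with the RNA quality measures as covariates. Hsd11b1, which regenerates active corticosterone inside cells, differed by 0.03 and did not pass. The remaining 10 of 12 measured receptor, steroid-activation and co-chaperone genes did not pass.

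**Figure D2:**
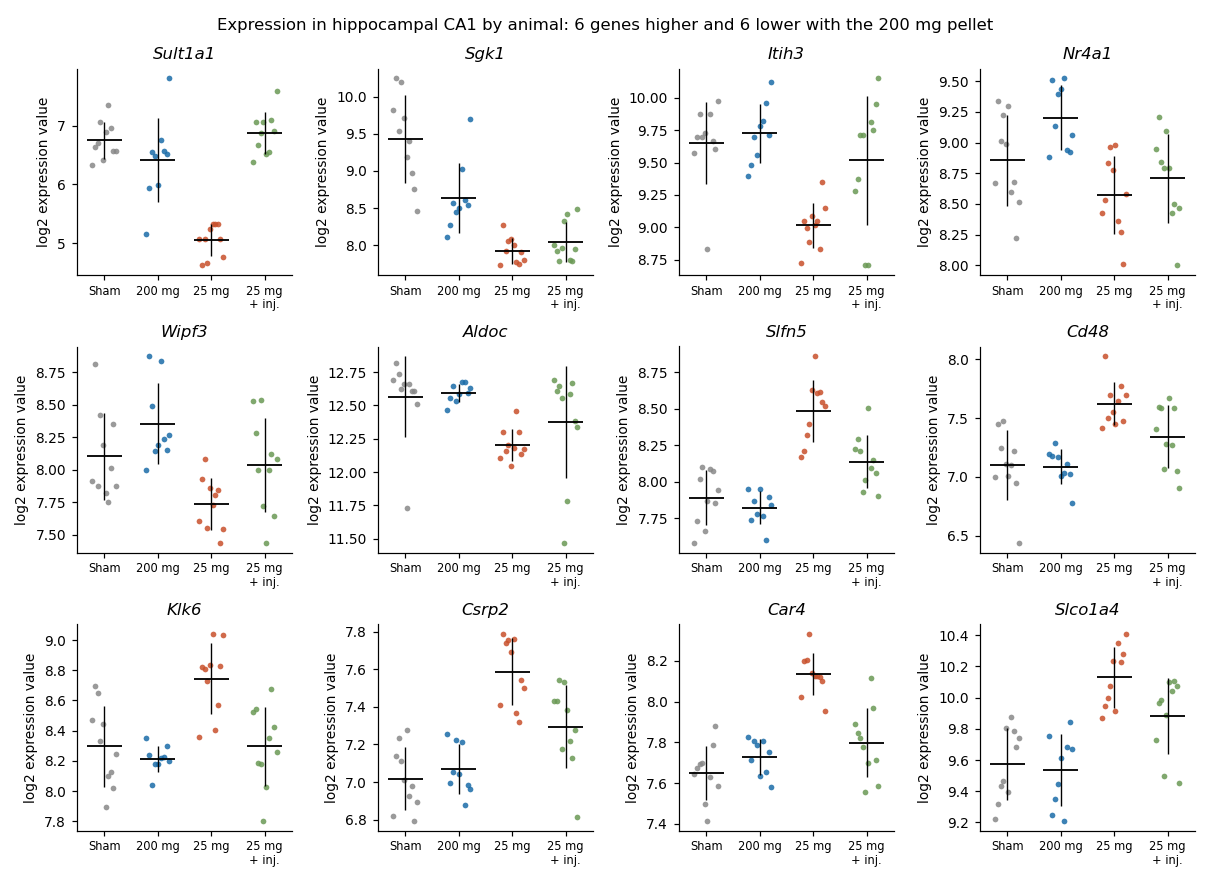
Each point is 1 animal's log2 expression value for the probe set of that gene with the smallest p, in Sham (gray), 200 mg pellet (blue), 25 mg pellet (red) and 25 mg pellet with injections (green); lines are group means and bars ± 1 SD, and points are spread sideways only to separate them. In Itih3, Aldoc, Slfn5, Cd48, Klk6, Csrp2, Car4 and Slco1a4 the blue and red points do not overlap, while in Sult1a1, Sgk1, Nr4a1 and Wipf3 they do.

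Immediate early genes, which neurons switch on within minutes of activity, split. Of 28 measured, 4 rose (Nr4a1, Arc, Dusp1, Fos), 1 fell (Jun) and the rest did not pass; the list's median was 0.06. The count of members higher was 2 without any one of animals 12, 14, 15, 16, 24, 26, 27 or 28, and 6 without animal 11. Nr4a1, an orphan nuclear receptor, rose on both probe sets; on the one with the smaller p it ranged from 8.01 to 8.98 (median 8.56) with 25 mg and from 8.88 to 9.53 (median 9.14) with 200 mg, a difference of 0.63 (SE 0.12, limma adjusted p 0.0076). Arc, which regulates AMPA receptor removal at spines, had medians of 9.95 (9.44 to 10.4) and 10.5 (10 to 11.2). That difference of 0.66 (SE 0.16, limma adjusted p 0.0324) overlapped in 4 of 9 animals of the larger dose and passed in 11 of 19 fits without 1 animal. Fos rose by 0.30 on 1 of 3 probe sets. Jun, the partner of Fos in the AP-1 factor, moved the other way on 3 of 4 probe sets, by −0.50, −0.38 and −0.35, and by 0.00 on the fourth.

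Genes of dendritic spines and calcium signalling rose in part. Of 42 measured, 4 rose and 2 fell, with a median of 0.07 and 30 positive. That is 14.3% called and 71.4% positive, against 2.85% and 52.2% over all genes. Wipf3, an actin-regulating protein of the WASP-interacting family, ran from 9.70 to 10.6 (median 10.3) with 25 mg and from 10.2 to 11.6 (median 11.1) with 200 mg, a rise of 0.83 (SE 0.15, limma adjusted p 0.00338). A second probe set of Wipf3 rose by 0.62 and the third differed by 0.08. Itpka, an inositol trisphosphate kinase that bundles actin in spines, rose by 0.58 (SE 0.13, limma adjusted p 0.0141), and Camkk1, which activates calmodulin-dependent kinases, by 0.32. Camk2a, the abundant kinase of the postsynaptic density, rose by 0.33 on 1 probe set and differed by 0.26 on the other (adjusted p 0.059, limma). The members that fell were Marcks, a membrane protein that binds actin, on 1 of 6 probe sets (−0.37), and Arpc1b, a subunit of the Arp2/3 actin-nucleating complex, on both of its probe sets (−0.34 and −0.19). The 6 Marcks probe sets differed in sign, from −0.46 to 0.13.

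Calcium-binding proteins separated the groups by their mean. The mean level of the 13 measured buffers and sensors lay between 9.31 and 9.40 in the 200 mg animals. In the 25 mg animals it lay between 9.08 and 9.29, with no overlap, although 2 of the 13 passed singly and 11 were positive. The list's median difference was 0.03 (0.11 with all probe sets of each gene), against 0.01 over all genes. The 2 that passed, Hpca and Calb1, thus weigh heavily in the mean. Hpca (hippocalcin), a neuronal calcium sensor of the hippocampus, went from a median of 11.6 (11 to 11.8) to 12.2 (11.8 to 12.4), a rise of 0.53 (SE 0.10, limma adjusted p 0.00649). Calb1 (calbindin), a buffer that also marks dentate granule cells, rose by 0.60 (SE 0.13, limma adjusted p 0.0132), from 8.87 to 9.86 up to 9.26 to 10.4. The other measured dentate granule marker, Tdo2, differed by 0.04. None of 14 calcium pumps and store channels and none of 12 voltage-gated calcium channels passed. Potassium channels (30), sodium channels and pump subunits (11), GABA and glycine receptors (18) and presynaptic vesicle genes (36) had no called member either. Of 22 glutamate receptor genes only Grin2c passed, falling by 0.21 on 1 of 2 probe sets.

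Cholesterol synthesis genes rose in part and by small amounts. Of 16 measured, 4 passed, all higher, and 14 were positive, with a median of 0.09. That is 25% called and 87.5% positive, against 2.85% and 52.2% over all genes. Fdft1, squalene synthase, had values of 8.59 to 9.20 (median 8.84) with 25 mg and 9.07 to 9.38 (median 9.20) with 200 mg, a rise of 0.38 (SE 0.07, limma adjusted p 0.00338); a second of its 4 probe sets rose by 0.22. Insig1, a membrane protein that restrains sterol synthesis, rose by 0.30 (SE 0.07) on 1 of 2 probe sets and differed by 0.29 on the other. Fdps, which makes farnesyl diphosphate, and Lss, lanosterol synthase, each rose by 0.26 on 1 of 3 probe sets. 

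In energy metabolism 2 enzymes moved in opposite directions. Aldoc, the brain aldolase that is strongest in astrocytes, ran from 12.0 to 12.5 (median 12.2) with 25 mg and from 12.5 to 12.7 (median 12.6) with 200 mg, without overlap. It rose by 0.39 (SE 0.05, limma adjusted p 0.000106), and its second probe set by 0.59. Hk2, the insulin-responsive hexokinase, went from a median of 7.57 (7.19 to 7.70) to 7.08 (6.90 to 7.25) on 1 probe set, a fall of 0.46 (SE 0.06, limma adjusted p 0.000146); its other probe set differed by 0.02. The remaining 25 of 27 glycolytic genes did not pass, nor did any of 26 respiratory chain genes or 37 ribosomal protein genes. Ak4, a mitochondrial adenylate kinase, fell by 0.40 (SE 0.08) with no overlap between groups.

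Interferon-response genes were the list with most members lower. Of 23 measured, 7 fell (Slfn5, Ifitm3, Rsad2, Irf1, Psmb9, Psme1, Slfn2), none rose, and 21 differed in the negative direction, with a median of −0.13. In this list 30.4% were called and 8.70% positive, against 2.85% and 52.2% over all genes. Their mean level lay between 7.14 and 7.22 in the 200 mg animals and between 7.28 and 7.37 in the 25 mg animals, without overlap. Earlier results of these data were known when this list and the others were made, so none is independent evidence of its own direction. Slfn5, a schlafen-family gene induced by interferon, went from 8.17 to 8.86 (median 8.53) down to 7.60 to 7.95 (median 7.84), with every 200 mg animal below every 25 mg animal. Its fall of 0.67 (SE 0.08) and that of Ifitm3, an antiviral membrane protein, by 0.55 (SE 0.06) had the smallest adjusted p of all probe sets, 6.09e-05 each (limma).

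Ifitm3 ran from 8.23 to 8.78 (median 8.65) with 25 mg and from 7.88 to 8.26 (median 8.08) with 200 mg, and 1 low animal of the 25 mg group, animal 20, made the overlap. Rsad2 (viperin), an antiviral enzyme, fell by 0.44 (SE 0.10, limma adjusted p 0.0157) on 1 of 2 probe sets, from a median of 6.55 to 6.15. Slfn2 fell by 0.17 (limma adjusted p 0.0498) but missed the threshold under 5 of the 8 other settings of the fit. Irf1, a transcription factor that drives interferon targets, fell by 0.26 on 1 of 2 probe sets and differed by −0.08 on the other. Psmb9 and Psme1, parts of the immunoproteasome that trims peptides for display, fell by 0.26 on 1 of 2 and 1 of 3 probe sets. The other Psmb9 probe set differed by −0.13, and the smallest Psme1 difference was −0.04. Antigen presentation showed 2 of 17 genes lower, Tap1 and RT1-S3. Tap1, which carries such peptides into the endoplasmic reticulum, fell by 0.26 (SE 0.05) on 1 of 2 probe sets. RT1-S3, a nonclassical class I gene, fell by 0.30 (SE 0.07) on 1 of 3. Without animal 20, 5 members of that list passed as lower. Of 44 cytokine, chemokine and receptor genes, Il6r rose and Il15 (on 1 of 3 probe sets), Il18 and Tnfrsf11b fell. Tnfrsf11b, the decoy receptor osteoprotegerin, went from a median of 7.44 (7.29 to 7.54) to 7.05 (6.90 to 7.18), a fall of 0.39 (SE 0.05, limma adjusted p 0.000106) without overlap.

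Further immune genes outside those lists fell, named here because their promoter windows hold the motif described next: Irgm2, an immunity-related GTPase (−0.40), Lgals3bp and Lgals9, a galectin ligand and a galectin (−0.23 and −0.18), Serpinb9, a granzyme inhibitor (−0.23), and Casp1, the inflammasome protease (−0.35). Lgals3bp and Lgals9 passed on 1 of 2 probe sets each and Casp1 on 1 of 3. The core of the interferon-stimulated response element, GAAANNGAA, occurred on either strand in 9.50% of all promoter windows and in 7.05% of the 3871 windows of genes on the array. Among genes lower with the 200 mg pellet, 12 of 71 windows held it (16.9%), and among genes higher, 1 of 35 (2.86%). The 12 were RT1-S3, Lgals3bp, Serpinb9, Irgm2, Casp1, Il15, Lgals9, Cd48, Tap1, Ifitm3, Grn and Rsad2, which fell by 0.18 to 0.55. The serum response core ATATTAGG and the sterol core ATCACCCCA occurred in none of the windows of either set, and the E-box CACGTG in 3 of 35 and 4 of 71, against 6.65% of all windows and 8.50% of those of array genes. A matched motif is a description of the letters present, not of a bound site. Stretches of 6 of these windows, before the start site, are shown because they carry the motif in genes that fell, with the 9 matched letters in capitals (as the reverse complement in Tap1 and Rsad2):
Ifitm3 (chr1:205541759-205541852, minus strand): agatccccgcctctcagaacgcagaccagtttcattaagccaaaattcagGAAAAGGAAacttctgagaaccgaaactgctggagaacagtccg
Irgm2 (chr10:42889818-42889926, plus strand): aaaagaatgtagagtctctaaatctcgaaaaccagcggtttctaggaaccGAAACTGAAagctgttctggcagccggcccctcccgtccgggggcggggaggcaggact
Cd48 (chr13:86717875-86717983, plus strand): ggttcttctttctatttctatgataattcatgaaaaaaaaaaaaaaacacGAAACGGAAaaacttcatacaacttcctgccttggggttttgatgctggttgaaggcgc
Lgals3bp (chr10:104127849-104127948, minus strand): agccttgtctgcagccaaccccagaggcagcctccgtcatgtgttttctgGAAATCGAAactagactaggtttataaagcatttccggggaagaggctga
Tap1 (chr20:4668605-4668713, minus strand): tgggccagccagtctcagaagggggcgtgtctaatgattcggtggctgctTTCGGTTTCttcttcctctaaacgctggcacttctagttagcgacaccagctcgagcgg
Rsad2 (chr6:48788208-48788316, minus strand): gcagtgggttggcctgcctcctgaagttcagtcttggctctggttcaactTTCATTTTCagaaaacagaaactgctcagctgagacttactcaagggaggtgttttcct

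**Figure D3:**
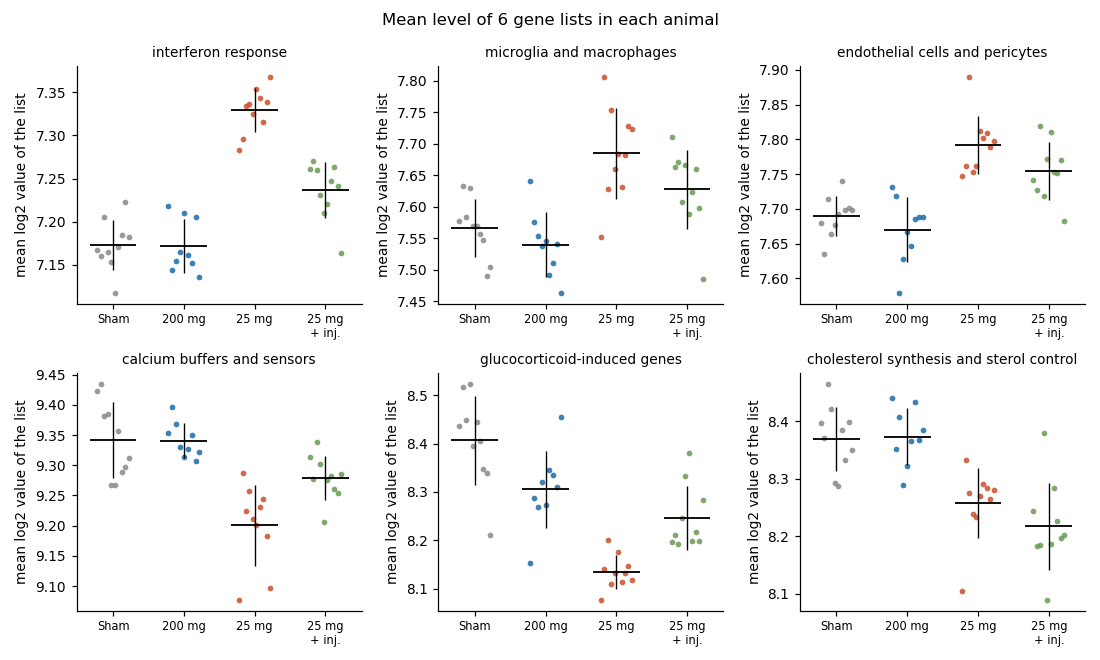
Each point is the mean log2 value of all measured genes of a list in 1 animal, by group (Sham gray, 200 mg blue, 25 mg red, 25 mg with injections green), with group means and ± 1 SD. Blue and red points are separate for the interferon (7.14 to 7.22 against 7.28 to 7.37), endothelial and calcium buffer lists and overlap for the other 3.

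Markers of microglia fell in part alongside the interferon genes. Of 20 measured, 5 fell (Fcgr2b, Cd48, Aif1, C3, Cd53), none rose and 16 were negative, with a median of −0.11. In this list 25% were called and 20% positive, against 2.85% and 52.2% over all genes. The list's mean ranged from 7.46 to 7.64 with 200 mg and from 7.55 to 7.81 with 25 mg. The part of microglial content in the interferon result was not tested. Cd48, an adhesion protein of leukocytes, went from a median of 7.60 (7.42 to 8.03) to 7.11 (6.78 to 7.29), a fall of 0.54 (SE 0.07, limma adjusted p 0.000288) without overlap. Fcgr2b, the inhibitory antibody receptor, fell by 0.60 (SE 0.11, limma adjusted p 0.00338), with 8 of 9 animals below all 25 mg animals. Aif1 (Iba1), the usual microglial stain, fell by 0.54 on 1 of 3 probe sets and differed by −0.40 and 0.00 on the others. Cd53 (−0.25, limma adjusted p 0.0498) passed in 5 and C3 (−0.36, limma adjusted p 0.034) in 6 of the 19 fits without 1 animal. Grn (progranulin), a lysosomal protein rich in microglia, fell on both probe sets, by 0.25 and 0.20, without overlap.

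Genes of the blood-brain barrier fell in part. Endothelial and pericyte markers had 2 of 25 called, both lower, and 18 negative, with a median of −0.06 against 0.01 over all genes. That is 8% called and 28% positive, against 2.85% and 52.2% over all genes. Their mean level separated the groups, at 7.58 to 7.73 with 200 mg against 7.75 to 7.89 with 25 mg. Large differences of single genes, given next, weigh heavily in that mean. Slco1a4, an organic anion transporter of brain capillaries, went from a median of 10.2 (9.87 to 10.4) to 9.61 (9.21 to 9.84), a fall of 0.59 (SE 0.09, limma adjusted p 0.000809). Car4, the carbonic anhydrase on the capillary surface, fell on both probe sets, by 0.44 (9.09 to 9.53 down to 8.70 to 9.00) and by 0.41 (7.95 to 8.33 down to 7.58 to 7.82), each without overlap. Kdr, a receptor for vascular endothelial growth factor, differed by −0.69 and Kcnj8, a pericyte channel, by −0.63, but neither passed (adjusted p 0.071 and 0.11, limma).

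Extracellular matrix and fibroblast genes fell in part. Of 48 matrix and integrin genes, 5 fell (Col1a1, Dcn, Enpp2, Mgp, Serpinh1) and 1 rose. The riser, Itih3, a heavy chain of inter-alpha-trypsin inhibitor that binds hyaluronan, went from 8.73 to 9.35 (median 9.03) up to 9.40 to 10.1 (median 9.71), a rise of 0.71 (SE 0.09, limma adjusted p 7.68e-05) with every 200 mg animal above every 25 mg animal. Dcn (decorin), a small matrix proteoglycan, fell on 3 of 4 probe sets, by 0.54, 0.48 and 0.46. Col1a1, a chain of type I collagen, fell by 0.66 (SE 0.13) on 1 probe set but differed by −0.06, −0.10 and 0.05 on the other 3. Efemp1 (fibulin-3), a matrix glycoprotein, fell on both probe sets, by 0.57 and 0.47, and Serpinh1, a collagen chaperone, by 0.29 (SE 0.04). Fibroblast and meningeal markers had 4 of 15 called lower, with list means of 7.41 to 7.58 against 7.51 to 7.65. Choroid plexus markers had 2 of 10 (Enpp2 and 1 of 6 Igf2 probe sets), with 6.84 to 7.04 against 6.93 to 7.08. The part of meninges or choroid plexus in the dissected tissue was not tested.

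Oligodendrocyte genes changed singly. Klk6, a secreted protease of oligodendrocytes, went from a median of 8.82 (8.36 to 9.04) to 8.22 (8.04 to 8.35), a fall of 0.53 (SE 0.08, limma adjusted p 0.000746) without overlap, and Cnp, a myelin enzyme, fell by 0.28 (SE 0.06). The other 13 of 15 oligodendrocyte markers did not pass, and the list's mean overlapped widely, at 9.81 to 10.2 and 9.77 to 10.3. Enpp6, a choline phosphodiesterase of newly forming oligodendrocytes, fell by 0.35, while none of 6 precursor markers passed. Of 17 astrocyte markers, Aldoc rose and Vim (vimentin) fell, by 0.48.

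S100 proteins and annexins went in both directions. S100a10 (p11), which carries receptors and channels to the membrane, ran from 7.57 to 8.14 (median 7.84) with 25 mg and from 7.63 to 8.80 (median 8.53) with 200 mg, and rose by 0.61 (SE 0.11, limma adjusted p 0.00429). S100a4 fell by 0.54 (SE 0.11), S100a1 by 0.20 to 0.32 on 3 of 4 probe sets, and Anxa5 by 0.22 on 1 of 2. The other 9 of 13 members did not pass.

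Smaller groups held single changes. Among MAP kinase genes, Dusp5 rose by 0.32 (SE 0.06) beside Dusp1. Map3k1, a kinase upstream of JNK, fell by 0.57 (SE 0.12) on 1 of 3 probe sets. Csrp2, a LIM protein of smooth muscle and developing cells, went from 7.32 to 7.79 down to 6.88 to 7.25, a fall of 0.52 (SE 0.07, limma adjusted p 0.000243) without overlap, whereas Pfn1 (profilin), which feeds actin filaments, rose by 0.33. Ddc, the decarboxylase that makes dopamine and serotonin, fell by 0.28 (SE 0.04) from 7.78 to 7.98 down to 7.48 to 7.74. Adra1d, an alpha-1 adrenergic receptor, rose by 0.49 and Mchr1, the receptor of melanin-concentrating hormone, by 0.33, each on 1 of 2 probe sets, while 38 of 40 monoamine and acetylcholine receptor genes did not pass. Sstr2, a somatostatin receptor, fell by 0.46 (SE 0.09). Gpx1 and Sod3, antioxidant enzymes, fell by 0.28 on 1 of 3 and by 0.23 on 1 of 2 probe sets. Each also had a probe set that differed by −0.03. Ccnd1 (cyclin D1) fell by 0.30 on 1 of 5 probe sets. Of the clock genes, Dbp fell by 0.25 on 1 of 2 probe sets and passed in 6 of 19 fits without 1 animal. No member passed among 25 proteasome, 17 amyloid-related, 8 renin-angiotensin and 39 G protein signalling genes.

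**Figure D4:**
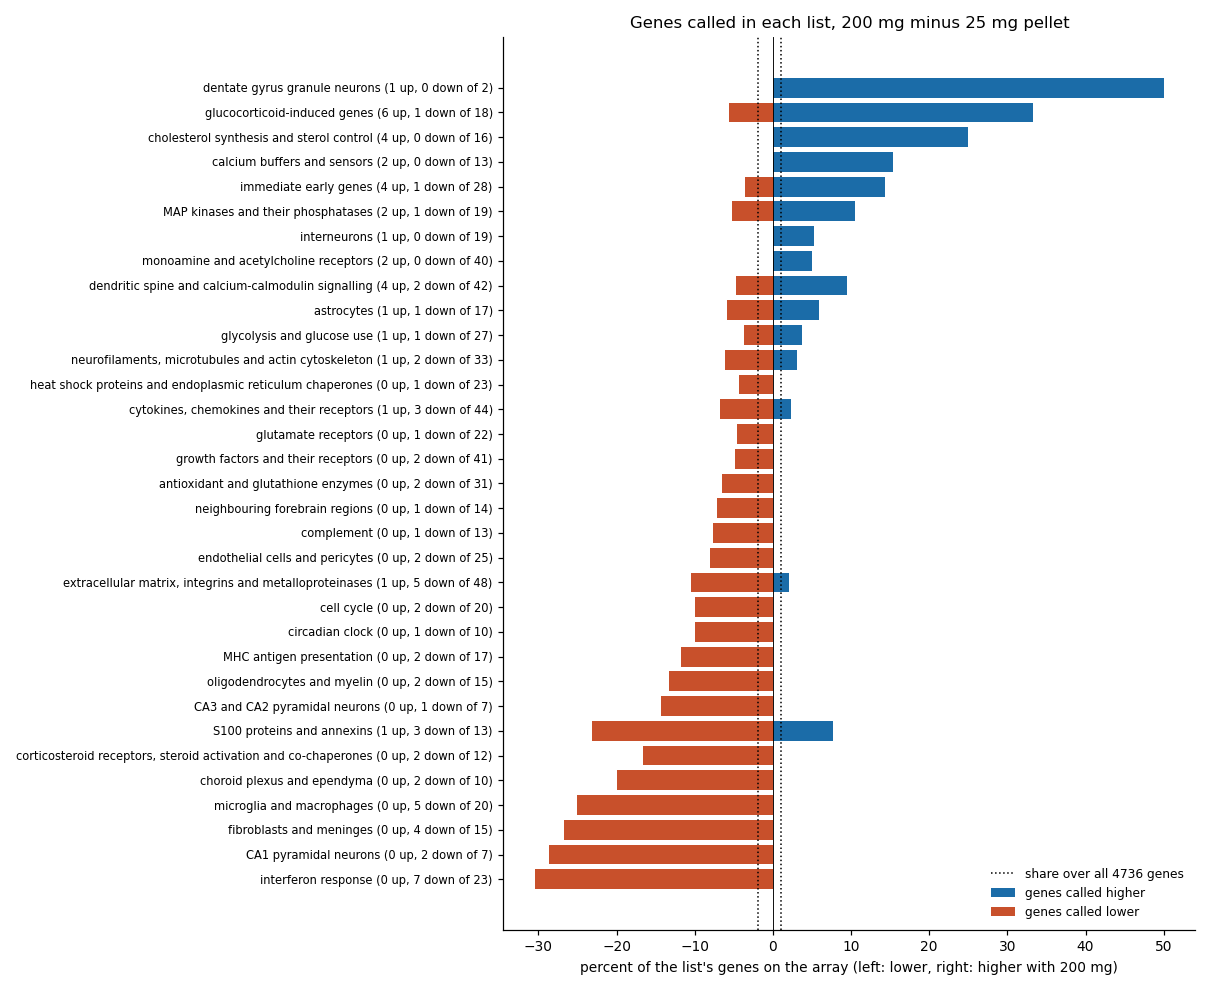
Bars give the percent of each list's measured genes called higher (right, blue) or lower (left, red) with the 200 mg pellet, for the lists with at least 1 called gene; counts stand beside each name and dotted lines mark the shares over all 4736 genes (0.992% higher, 1.86% lower). Interferon genes extend farthest to the left (7 of 23), and the longest right bar, the dentate list, rests on 1 gene of 2.

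Some calls did not pass once 3' to 5' signal differences, a measure of RNA integrity on these arrays, entered as covariates, among them Fos, Camk2a, Cebpd, Tat, Nr3c1, Irf1, Slfn2, Dbp, Vip, Mchr1, Top2a and Gpx1. The count of interferon genes lower was then 5 in place of 7. Those differences averaged 0.63 ± 0.21 (SD, n = 9) for Gapdh with 200 mg and 0.81 ± 0.24 (SD, n = 10) with 25 mg, and 0.65 ± 0.36 and 0.93 ± 0.40 for beta-actin. Neither difference passed a two-sided exact permutation test (adjusted p 0.132 for each). With the covariates 226 probe sets passed, 151 of them among the 175. When all 39 arrays shared 1 estimate of the spread, 141 probe sets passed, 120 of them among the 175; those lost included the called probe sets of Aldoc, Fdft1, Fdps, Nr3c2, Nr3c1, Dusp1, Errfi1, Cebpd, Camk2a, Irf1, C3 and RT1-S3. Correlations between arrays were 0.978 to 0.997 within groups and 0.981 to 0.997 between groups.

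Markers were used to check the dissection. Of the CA1 pyramidal markers 7 were measured, with list means of 7.94 to 8.37 with 200 mg and 8.19 to 8.46 with 25 mg; Dcn and Nr3c2 fell and the other 5 did not pass. Of 7 CA3 and CA2 markers and 14 markers of neighbouring forebrain regions, only Prkcd passed. Prkcd, a protein kinase C that both lists hold, fell by 0.29 on 1 of 2 probe sets. Of 19 interneuron markers, Vip, a peptide of one interneuron class, rose by 0.44 (SE 0.11, limma adjusted p 0.041). That Vip result passed in 6 of 19 fits without 1 animal, and did not pass with the covariates or with all 39 arrays in the fit. None of 8 blood cell markers passed. Log2 array values have no true zero, so absence of a cell type cannot be read from them.

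Animals of a group did not contribute alike. When the calls were made without one animal and that animal was then placed by them, animal 16 of the 200 mg group lay on its own group's side for 99.2% of the probe sets, and animals 28 and 24 of the 25 mg group for 94.3% and 91.9%. Animal 11 of the 200 mg group lay on its own side for 43.9% of 230 probe sets, and animal 20 of the 25 mg group for 53% of 217. Without animal 11 the number of probe sets called higher was 91 in place of 58 and the total 230. Without animal 20 the total was 217. The interferon count was 8 without animal 11 and 6 without animal 20. Of the 175 probe sets, 122 passed in all 19 fits without 1 animal, 27 in fewer than 10, and none changed sign under any of those fits.

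**Figure D5:**
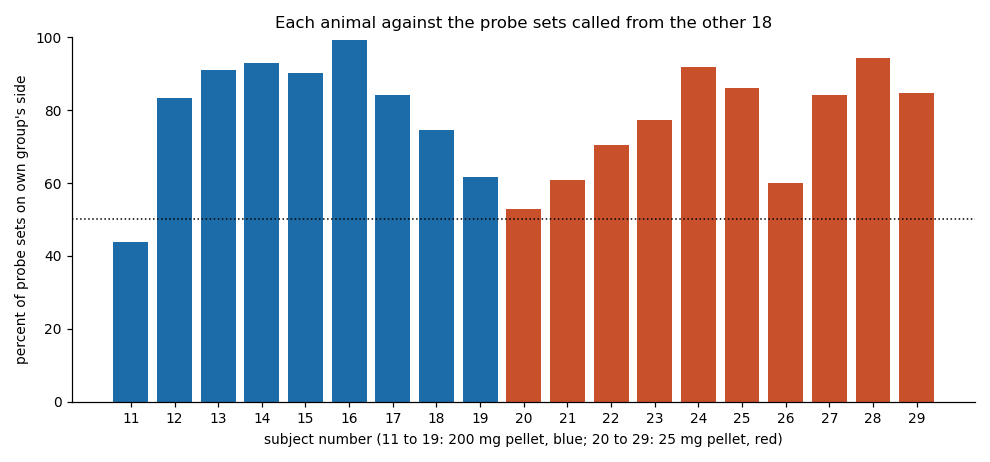
Bars give, for each of the 19 animals, the percent of probe sets called from the other 18 on which the animal's own value lay nearer its own group's mean; the dotted line marks 50%. Animal 16 reached 99.2%, animal 11 was the one below the line at 43.9%, and animal 20 stood just above it.

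Sham animals gave the level in rats with their own adrenals. This comparison shares its 200 mg arrays with the one above, so the values are set side by side and counts over the same probe sets are no test. The 175 probe sets were chosen for their difference from the 25 mg animals (median size 0.34), so that size is large by choice and is no measure against which to set another comparison. Their median size of difference from Sham was 0.07, and none of them passed against Sham (limma, adjusted over all 8740; 25 at an unadjusted p under 0.05). Slfn5 averaged 7.89 in Sham, 7.82 with 200 mg and 8.49 with 25 mg; its difference from Sham was −0.07 with a 95% interval from −0.22 to 0.08. Itih3 averaged 9.65, 9.72 and 9.01 in the same order, and Il6r 7.09, 7.08 and 6.62. These genes do not stand for all 175. For 55 of the 175 the Sham mean lay further from the 25 mg mean than the 200 mg mean did. A p that misses the threshold does not show that the groups are alike, and Sgk1, above, had an interval from −1.25 to −0.33.

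Over all probe sets, 2 passed between 200 mg and Sham (0.0229%), both higher with the pellet: 1 with no gene symbol, by 1.10, and 1 of Cd74, the class II invariant chain, by 0.50 (limma adjusted p 0.0361). The other Cd74 probe set differed by 0.57 and Camk2a by 0.50 (adjusted p 0.0668 each, limma). Cd74 averaged 7.39 with 200 mg, 7.07 with 25 mg and 6.89 in Sham. Camk2a averaged 8.28 with 200 mg, 7.94 with 25 mg and 7.78 in Sham.

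Against the injected animals, which carried the 25 mg pellet, limma called none of the 8740 probe sets (0%), with 860 at an unadjusted p under 0.05 and a lowest adjusted p of 0.0731. With array weights 37 passed. Injected animals 34 and 35 stood far from their group on Aldoc, as given above, and their part in the count was not tested. Over the 175 probe sets the median size of the difference was 0.20, and 104 of them were at an unadjusted p under 0.05. Those 175 were chosen with the same 200 mg arrays and against animals with the same 25 mg pellet. That choice alone raises both numbers, so they are no test of a difference from the injected animals. Sult1a1 averaged 6.87 in injected animals, 6.42 with 200 mg and 5.05 with 25 mg alone, whereas Il6r averaged 6.75, 7.08 and 6.62 and Fdft1 8.77, 9.21 and 8.83. Insig1 averaged 8.67 in injected animals and 9.07 with 200 mg, a difference of 0.40 (limma adjusted p 0.158). The injected mean lay at or above the 200 mg mean for Sult1a1 and nearer the 25 mg mean for Il6r, Fdft1 and Insig1; whether these patterns differ was not tested.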

How the data were processed

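CA1 tissue RNA of 39 rats was hybridized to rat Affymetrix arrays, one per animal. The values are the authors' deposited log2 expression values, 1 per probe set and array; per the submitters' processing notes MAS5, RMA and R 2.7.1 were used, with no role given, and the step that produced these values is not stated. No background correction or normalization was added. Array medians of the 19 arrays lay between 7.27 and 7.31; the number of arrays limits the precision.

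The 59 control probe sets were left out and 8740 tested without a filter, with limma 3.58.1 in R 4.3.3 (group means, eBayes, 17 residual degrees of freedom), Benjamini-Hochberg adjustment and a threshold of 0.05; the same fit compared the 200 mg animals with Sham and with LowInj. The script was tested on simulated data. Symbols came from the platform annotation of 2016: 7006 probe sets had 1 symbol, 308 several and 1426 none, and only those with 1 are named; a refreshed match of 6985 gene identifiers changed 0 symbols. A gene in a list counted as called if any probe set passed; medians used the probe set with the highest mean. Named genes are called genes, up to 4 genes per list with the smallest p, and 9 fixed corticosteroid genes. The comparison, the 47 lists and the tests were chosen with earlier results of these data known. Replicate numbers are animal numbers, and the alternatives were all 39 arrays, a filter at the 30th percentile of the mean, array weights, quantile normalization, median centring, 3' to 5' covariates, animal number as covariate, trend with robust variance, all probe sets of each list gene, medians for the 3' to 5' differences, and leaving out each animal.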

Additional observations from a re-analysis of the deposited data

Results flagged for a closer look

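Of 328 sets of 9 or 10 values (the named probe sets in each pellet group), 17, or 5.18%, held an animal whose gap to its nearest neighbour exceeded Dixon's critical value, and chance alone gives about 1 in 20. All values are log2 expression values. Animal 11 of the 200 mg group stood apart for Bud31 at 9.51 (below the others at 9.94 to 10.2), for Calb1 at 9.26 (below the others at 9.85 to 10.4) and for Wipf3 at 10.2 (below the others at 10.9 to 11.6). Animal 26 of the 25 mg group stood apart for Bud31 at 9.82 (above the others at 9.47 to 9.66). Animal 13 of the 200 mg group stood apart for Cav3 at 4.21 (below the others at 4.40 to 4.53). Animal 14 of the 200 mg group stood apart for Cbr1 at 8.09 (below the others at 8.21 to 8.32) and for Crabp1 at 7.26 (above the others at 6.71 to 6.98). Animal 20 of the 25 mg group stood apart for Dcn at 9.86 (above the others at 8.89 to 9.33), for Ifitm3 at 8.23 (below the others at 8.57 to 8.78) and for Nr3c1 at 7.47 (above the others at 6.85 to 7.02). Animal 29 of the 25 mg group stood apart for Gpr12 at 6.86 (below the others at 7.07 to 7.25), for Syne1 at 8.21 (below the others at 8.47 to 8.76) and for Tspan8 at 6.30 (above the others at 5.84 to 6.06). Animal 25 of the 25 mg group stood apart for S100a1 at 9.86 (above the others at 9.54 to 9.69) and for Serpinb9 at 6.18 (below the others at 6.31 to 6.40). Animal 22 of the 25 mg group stood apart for Slc40a1 at 6.05 (above the others at 5.40 to 5.70). Animal 19 of the 200 mg group stood apart for Ykt6 at 7.57 (below the others at 7.85 to 8.14). Where a gene has several probe sets, the values are those of 1 of them. Animals 11, 20 and 29 had 3 such values each. Animals 11 and 20 were also those of their groups that the calls from the other animals placed least often on their own side (43.9% and 53%). Both measures draw on called probe sets, so they are not independent of each other. Without animal 20, Ifitm3 fell at an adjusted p of 6.41e-07 (limma), and without animal 11 Calb1 and Wipf3 kept passing.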

How the results depend on the processing

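Between the pellets, 175 probe sets passed; array weights gave 328 (110 higher, 218 lower) and animal number as a covariate 289 (105 higher, 184 lower), each holding all 175, and the other 6 settings of the fit gave 141 to 226. Leaving out 1 animal gave 126 (without animal 16) to 230 (without animal 11), with 41 to 91 higher and 85 to 149 lower. Of the 175, 111 passed under every other setting that tested them, 24 lay below the filter, 96 passed in every fit that tested them, and 0 changed sign. Against Sham, where 2 passed, 5 did with the 3' to 5' covariates, 4 with the filter and 1 with all 39 arrays (1 to 3 without 1 animal). Against LowInj, where none passed, 10 did with the covariates, 10 with all 39 arrays, 37 with array weights and 2 with animal number (0 to 4 without 1 animal). With all probe sets of each gene, list medians moved to 0.11 for calcium buffers, −0.10 for interferon genes, −0.026 for complement, −0.016 (from 0.01) for renin-angiotensin genes and −0.14 (from 0.06) for CA1 markers; the last 2 changed sign, as did smaller medians such as MHC genes (−0.04 to 0.03) and G proteins (−0.01 to 0.03). Of the probe sets of named genes followed across settings, those that changed sign were uncalled and near 0: with array weights Nr3c1 gave 0.00061 and 0.0031 on 2 probe sets, and without 1 animal these ranged from −0.027 to 0.012 and from −0.041 to 0.032, and Hsd11b1 from −0.010 to 0.058. Klf9 passed on 1 probe set without animal 11 (0.33) and on the other with animal number as a covariate (0.21). The causes of these shifts were not tested. Gapdh and beta-actin 3' to 5' differences by medians gave adjusted p 0.11 and 0.0901 (exact permutation tests). No paired analysis was possible because the replicate numbers are animal numbers that the groups do not share. The number of animals, the bulk dissection and the unknown drinking fluid of the 200 mg group limit every value.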
